A study of Rattus norvegicus with 2 samples.

Results

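The NF-kappaB subunits and feedback regulators are 10 genes: the subunits Nfkb1, Nfkb2, Rela and Relb, the inhibitors Nfkbia and Nfkbib, and the feedback or modulating genes Nfkbiz, Tnfaip3, Bcl3 and Birc3. They were chosen by name, and a probe was counted as theirs where its RefSeq accession maps to the gene. This gave 8 probes for 6 of the 10 genes (Nfkb2, Rela, Nfkbia, Nfkbib, Bcl3 and Birc3), out of 13661 genes with a named probe that was not flagged as an outlier. No probe could be named for Nfkb1, Relb, Nfkbiz and Tnfaip3, whose transcript levels were not analysed here. RNA came from livers of Sprague Dawley rats, collected 36 h after sodium chloride in the control group and 36 h after senecionine, a hepatotoxic pyrrolizidine alkaloid, given by the intragastric route at 35 mg/kg in the treated group. Tissue of 3 animals per group was pooled and hybridised to 1 one-colour (Cy3) Agilent array. Each difference below is therefore between 2 arrays, with no replicate check and no test.

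NF-kappaB is a family of dimeric transcription factors that switch on inflammatory and survival genes. In resting cells, dimers such as Rela with p50 are held in the cytoplasm by IkappaB proteins, and cytokine or Toll-like receptors release them through the IkappaB kinase (IKK) complex. Many of the regulators are themselves targets of the factor and so form feedback loops. In liver, hepatocytes, Kupffer cells and endothelial cells all use the pathway, which is known for the acute phase response and for protection of hepatocytes from death signalled by tumour necrosis factor.

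The arrays differed as wholes in ways that bear on every ratio. On the control array 44.4% of the spots for genes were well above background, against 64.1% on the senecionine array. Their processed signals had a 75th percentile of 101 and 134 intensity units. Each array was scaled to its own 75th percentile, and a ratio is given as a log2 difference, senecionine minus control. Genes well above background on both arrays were called measured, and the median log2 ratio of the 7798 measured genes was -0.14. It was -0.26 when arrays were scaled to their medians and 0.27 without scaling. Markers of the labelled tissue were present: 5 of 8 hepatocyte markers were well above background on both arrays. The probes of the other 3 (Ttr, Apoa1 and Tf) were flagged as outlier spots and left out. Brain markers went against the label of the control array. Of 12 with a named probe, 7 were well above background on both arrays and 6 of these 7 were at least 2-fold lower after senecionine. Of all measured genes 17.7% were lower by as much. A further 3 brain markers were well above background only in the control pool. Gfap was so only in the treated pool (5.19 intensity units in control and 13.5 after senecionine), and Stmn2 on neither array. With 1 array per group, no value can be given without the control array.

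The 2 subunits with a probe differed from each other. Nfkb2 encodes p100, the precursor of p52 and an inhibitor of Relb dimers in the noncanonical pathway. Its brighter probe had a signal of 131 intensity units in the control pool and 348 in the treated pool. The log2 ratio was 0.998 ± 0.21 (error of the 2 spots carried to the ratio, which is technical error within the arrays), so Nfkb2 lay just inside the 2-fold line at which genes were counted. Its second probe was not well above background on either array, with signals of 4.92 and 6.11, and gives no ratio.

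Rela encodes p65, the main activating subunit of the canonical pathway. The brighter of its probes read 674 intensity units in control liver and 793 after senecionine, and the log2 ratio was -0.17 ± 0.20, within its spot error. The sign of this ratio turned with the processing, to 0.23 without scaling and 0.25 with normexp background correction. The dimmer Rela probe read 23.6 and 28.9 intensity units, with a log2 ratio of -0.11 ± 0.36. Set against the median of all measured genes, the Rela probes lay at -0.04 and 0.02. The log2 ratio of Nfkb2 exceeded that of Rela by 1.17 ± 0.29 (combined spot error), a difference that no single scaling factor per array can change. Background correction did change it. With normexp the gap was smaller, with Nfkb2 at 0.80 and Rela at 0.25.

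**Figure D1:**
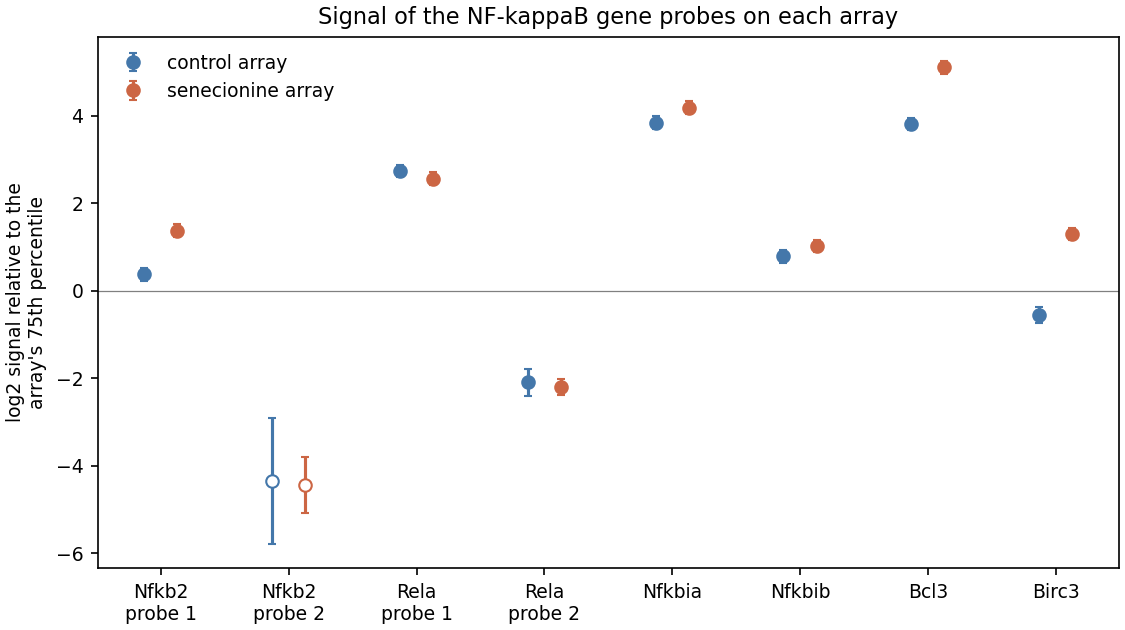
Log2 signal relative to each array's 75th percentile (vertical axis) of the 8 probes, on the control array (blue) and the senecionine array (orange). Bars are Agilent's spot error and open points were not well above background. The senecionine points of Nfkb2 probe 1, Bcl3 and Birc3 stand clear of their control points, those of Rela, Nfkbia and Nfkbib lie close to them, and heights of different probes are not comparable.

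The inhibitors IkappaB-alpha and IkappaB-beta stayed within 2-fold. Nfkbia encodes IkappaB-alpha, the fast feedback inhibitor that pulls Rela dimers back out of the nucleus. Its probe read 1449 intensity units in the control pool and 2443 in the treated pool, and after scaling the log2 ratio was 0.35 ± 0.20, or 1.27-fold. Nfkbib encodes IkappaB-beta, a slower and more constant inhibitor. It read 175 and 272 intensity units, with a log2 ratio of 0.23 ± 0.21. The ratios of the pair differed by 0.12 ± 0.29, less than the combined spot error. Relative to the median of all measured genes they were 0.48 and 0.36 higher. Nfkbia reached 0.59 with normexp correction and 0.75 without scaling, below 2-fold in each case.

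The largest differences among the 6 genes belonged to Birc3 and Bcl3. Birc3 encodes cIAP2, a ubiquitin ligase at the tumour necrosis factor receptor that promotes canonical signalling and restrains cell death. Its probe read 69.1 intensity units in the control pool and 329 in the treated pool. Birc3 was 3.59-fold higher after senecionine (log2 ratio 1.85 ± 0.23), and 252 of the 7798 measured genes had a higher ratio. The RefSeq table gives Birc2 as an older name of Birc3. The gene now called Birc2, which encodes the close relative cIAP1, has a probe of its own that read 29.4 and 71.1 intensity units (log2 ratio 0.87 ± 0.30). Birc2 was picked for this likeness of name. Whether the probes of these related genes share signal was not tested.

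Bcl3 encodes an atypical IkappaB protein that works in the nucleus with p50 and p52 dimers and can activate or repress their targets. Its probe read 1424 intensity units in the control pool and 4637 in the treated pool. Bcl3 was 2.46-fold higher (log2 ratio 1.30 ± 0.20), and 555 measured genes had a higher ratio. The log2 ratio of Birc3 exceeded that of Bcl3 by 0.55 ± 0.31 after scaling to the 75th percentile. With normexp correction their order turned, with Bcl3 at 1.499 and Birc3 at 1.425. Over Rela, the log2 ratio of Birc3 was higher by 2.02 ± 0.31, and by less with normexp correction, where Rela was at 0.25. The log2 ratio of Bcl3 exceeded that of Nfkbia by 0.95 ± 0.29.

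All 6 genes with a named probe were well above background on both arrays. After senecionine 2 of them, Birc3 and Bcl3, were higher by 2-fold or more, and none was lower by as much. Among all measured genes, 11.2% were higher and 17.7% lower by 2-fold or more. Nfkb2 crossed the line with cyclic loess normalization (log2 ratio 1.06) and without scaling (1.41), which made the count 3. In these settings 12.5% and 20.8% of all measured genes were higher by 2-fold or more. At 1.5-fold, 3 of the 6 were higher, against 21% of all measured genes, and at 3-fold 1 was, against 4.69%. The median log2 ratio of the 6 genes was 0.67. The authors' deposited table holds only probes differing by at least 2-fold. It has 7404 probes, 4003 higher and 3401 lower after senecionine, beside 40516 probes used here. Of the 8 probes of the 6 genes, 3 are listed. They are those of Nfkb2, Bcl3 and Birc3, with log2 differences of 1.02, 1.62 and 1.90 in the authors' deposited table, where all 3 were higher after senecionine.

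**Figure D2:**
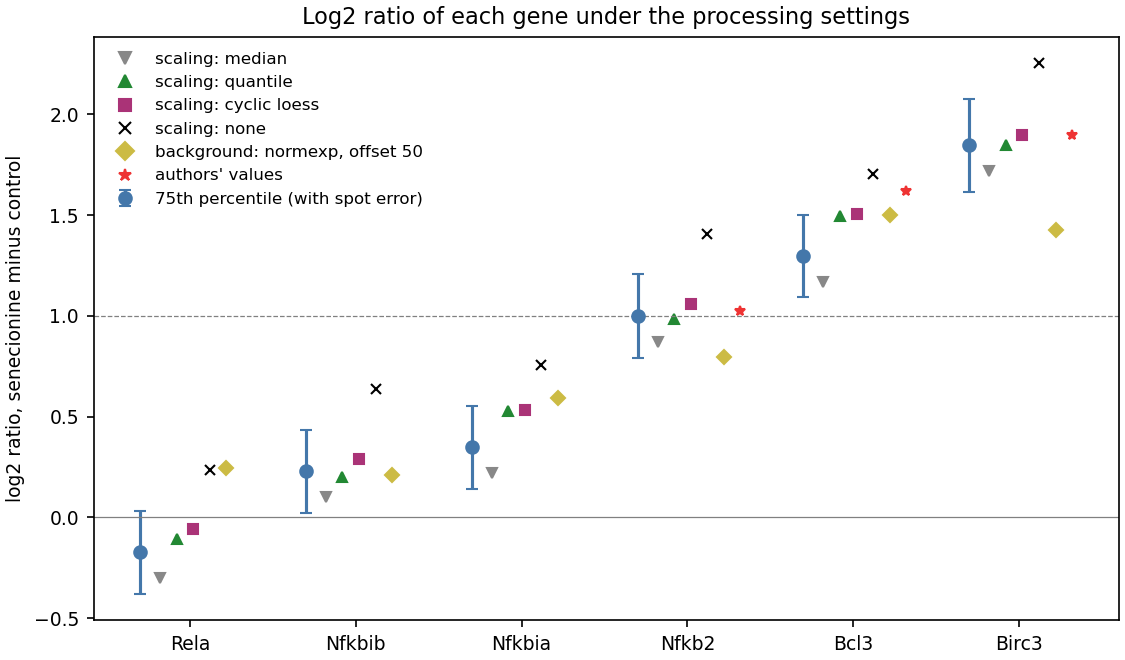
Log2 ratio (senecionine minus control, vertical axis) of the 6 genes under each scaling, with normexp background correction and in the authors' values. Blue circles with bars are the ratios after scaling to the 75th percentile with their spot error, and the dashed line marks 2-fold. Birc3 and Bcl3 lie above the dashed line in every scaling and with normexp correction, Nfkb2 lies on both sides of it, and Rela lies on both sides of 0. The authors' values hold only probes differing by at least 2-fold, so their place past 2-fold was fixed in advance.

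**Figure D3:**
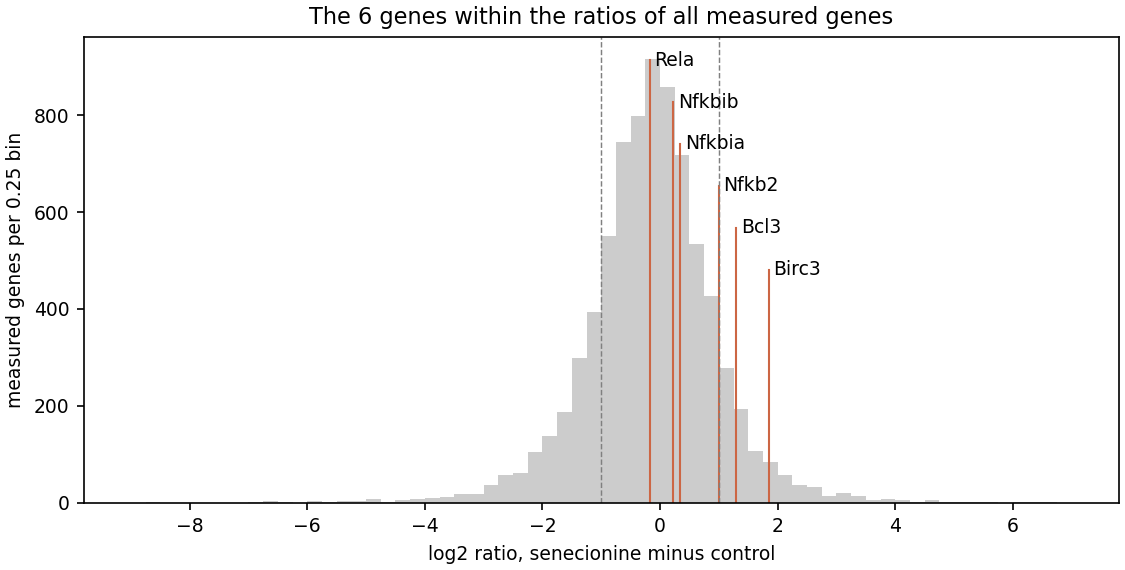
Number of measured genes (vertical axis) by log2 ratio in bins of 0.25 (horizontal axis), with the 6 genes marked by orange lines whose height has no meaning. Dashed lines mark 2-fold in either direction. Rela lies near the peak of the distribution and Birc3 in its upper tail, with 252 genes above it.

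Promoter sequences of the 10 genes were then searched. The window from 250 bases before to 50 bases after the start of each gene, as the RefSeq table of build GRCr8 gives it, was read on both strands for the 10-base kappaB consensus motif, to which NF-kappaB dimers bind. Of the 10 genes 8 had a window, and 6 of these 8 held a match. Over all 27457 genes with windows of that length, 4.51% held a match in at least 1 window, and 4.18% of all 33469 windows did. The 3 measured genes with a match are shown, because Bcl3 and Nfkb2 had the second and the third highest ratios of the 6 and Nfkbia is the classical feedback inhibitor. Capitals mark the match.
Bcl3 (chr1:88613506-88613805, minus strand): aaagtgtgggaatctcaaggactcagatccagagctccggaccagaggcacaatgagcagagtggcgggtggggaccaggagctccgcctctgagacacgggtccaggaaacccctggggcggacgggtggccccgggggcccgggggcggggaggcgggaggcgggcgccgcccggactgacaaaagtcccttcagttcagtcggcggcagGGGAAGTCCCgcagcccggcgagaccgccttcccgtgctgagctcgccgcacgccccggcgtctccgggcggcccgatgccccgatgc
Nfkb2 (chr1:255108124-255108423, plus strand): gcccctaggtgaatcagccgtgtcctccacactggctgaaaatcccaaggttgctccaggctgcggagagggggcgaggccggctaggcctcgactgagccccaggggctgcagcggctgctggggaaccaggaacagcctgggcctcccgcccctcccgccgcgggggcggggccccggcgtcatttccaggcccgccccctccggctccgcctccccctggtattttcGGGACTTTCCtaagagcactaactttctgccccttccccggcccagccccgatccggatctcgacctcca
Nfkbia (chr6:78597023-78597322, minus strand): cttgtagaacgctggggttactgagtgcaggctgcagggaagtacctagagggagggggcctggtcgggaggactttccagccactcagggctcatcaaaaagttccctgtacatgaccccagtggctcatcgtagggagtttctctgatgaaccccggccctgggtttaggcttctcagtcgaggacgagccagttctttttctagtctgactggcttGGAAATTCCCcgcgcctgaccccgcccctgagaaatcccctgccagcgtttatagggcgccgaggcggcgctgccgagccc

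In each of the 3 windows the single match began within 38 bases before the start. The match was GGGACTTTCC in Nfkb2, and GGGAAGTCCC in Bcl3 and GGAAATTCCC in Nfkbia, the last 2 matching on the opposite strand. Of the genes without a measured transcript, Nfkbiz and Nfkb1 each held 1 match, the same GGGAATTTCC (before the start in Nfkbiz and after it in Nfkb1), and Tnfaip3, which encodes the ubiquitin-editing inhibitor A20, held 3. The windows of Rela and Nfkbib held none, and no window was used for Birc3 and Relb. The 3 measured genes with a match thus had log2 ratios of 1.30, 0.998 and 0.35, and the 2 without had 0.23 and -0.17. These 5 values are a description, since a match is not shown to be bound. Among measured genes with a window, a match was held by 51 of 687 higher by 2-fold or more, 214 of 4617 within 2-fold and 62 of 1128 lower by 2-fold or more.

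The rest of the family and its inhibitors followed no common direction. Of 6 further family and IkappaB-related genes 3 were measured, with 1 higher, 1 lower and 1 within 2-fold. Nfkbie encodes IkappaB-epsilon, an inhibitor with its own feedback loop. It read 55.6 and 207 intensity units and was 2.80-fold higher (log2 ratio 1.49 ± 0.24), unlike Nfkbia and Nfkbib, which lay within 2-fold. Its promoter window also held a kappaB match, and 3 of the 5 genes of this list with a window did, counting Nfkbie. Among the pathway genes below, Map3k7 and Tnfrsf12a were higher by 2-fold or more and held none. Vcam1 held a match at a log2 ratio of 0.19. Commd1, which promotes the ubiquitination of Rela, was 2.41-fold lower (-1.27 ± 0.20), and Nfkbil1 had a log2 ratio of -0.46 ± 0.22. With normexp correction neither Nfkbie nor Commd1 passed 2-fold.

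Upstream of the subunits, single genes of the kinase cascade were higher. Of 19 measured genes of the IKK complex and its adaptors, 4 were higher by 2-fold or more and 1 was lower, beside 11.2% and 17.7% of all measured genes. With normexp correction 2 were higher and 0 lower, and 7.86% of all genes were higher. Without scaling 7 were higher and 0 lower, and 20.8% of all genes were higher. The list's median log2 ratio was 0.36, beside -0.14 for all measured genes. Ikbkb, the catalytic IKK subunit of the canonical pathway, read 269 and 942 intensity units and was 2.64-fold higher (1.40 ± 0.21). Map3k7, which encodes the kinase TAK1 above IKK, was also 2.64-fold higher, and the interleukin-1 receptor kinase Irak1 was 2.63-fold higher. Ripk2, the adaptor of the NOD receptors, was 3.53-fold higher by its brighter probe, but the other probe went the opposite way (log2 ratio -1.02). The 1 lower gene, Tab1, a partner of TAK1, was 2.22-fold lower. The other catalytic subunit Chuk had a log2 ratio of 0.39 ± 0.29 and the noncanonical kinase Map3k14 one of -0.02 ± 0.24. Tab1, Chuk and Map3k14 were picked after their values were seen. A further 6 genes of this list were well above background only after senecionine, as were 19.1% of all named genes. Among them the IKK-related kinase Ikbke was at least 2.50-fold and Card9, an adaptor of myeloid lectin receptors, at least 2.35-fold higher, taking the lowest signal well above background on the control array, or the probe's own where higher, as the floor.

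Receptors and ligands that feed the pathway were higher in part. Of 12 measured receptors 3 were higher by 2-fold or more, beside 11.2% of all measured genes, and none was lower, beside 17.7% (median 0.51). With median scaling 2 were lower, as were 21.3% of all genes, and without scaling 6 were higher, as were 20.8%. Tnfrsf12a, the receptor of the cytokine TWEAK, was 11.1-fold higher (log2 ratio 3.47 ± 0.22). Tnfrsf1b, the inducible receptor of tumour necrosis factor, read 219 and 1478 intensity units and was 5.09-fold higher. Tlr2, which senses bacterial lipoproteins, was 4.83-fold higher, and Tlr9, a sensor of DNA, had a log2 ratio of -0.89. Il1rl1, the receptor of interleukin-33, and the RNA sensor Tlr7 were well above background only after senecionine and at least 4.79-fold and 1.93-fold higher. The constitutive receptor Tnfrsf1a, picked after its value was seen, had a log2 ratio of 0.07 ± 0.20.

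Of 6 measured ligands 3 were higher by 2-fold or more and none lower, beside 11.2% and 17.7% of all measured genes, and 2 were higher with median scaling or normexp correction. The 3 were Ltb, a lymphotoxin subunit and ligand of the noncanonical pathway (6.23-fold, log2 ratio 2.64 ± 0.25) and the inflammasome cytokines Il18 (2.30-fold) and Il1b (2.15-fold, or a log2 ratio of 1.30 by the other probe). The alarmin Il33 had a log2 ratio of -0.36, and -0.97 by the other probe. Tnf was well above background only after senecionine, at 18.3 intensity units, which is under the lowest signal so called on the control array (20.6), so no fold is given. Il1a was also well above background only after senecionine, though its signal was lower there (24.3 intensity units in control and 19.5 after senecionine).

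Among the other negative regulators, 1 of 12 measured genes was higher and 1 lower by 2-fold or more (median 0.09), beside 11.2% and 17.7% of all measured genes, and 3 were higher and none lower without scaling. Il1rn, the secreted antagonist of the interleukin-1 receptor, read 436 and 3435 intensity units and was 5.94-fold higher (log2 ratio 2.57 ± 0.20). Il1r2, the decoy receptor of interleukin-1, was well above background only after senecionine and at least 12.6-fold higher. Cyld, a deubiquitinase that dampens IKK activation, had a log2 ratio of 0.98 ± 0.21, and passed 2-fold with cyclic loess normalization (2 higher in all). Sigirr, an inhibitory relative of the interleukin-1 receptor, had one of -0.82. The deubiquitinase Usp21 was 2.48-fold lower, but within 2-fold by its other probe (log2 ratio -0.52). Socs1, a suppressor of cytokine signalling, was well above background only after senecionine and at least 1.41-fold higher.

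**Figure D4:**
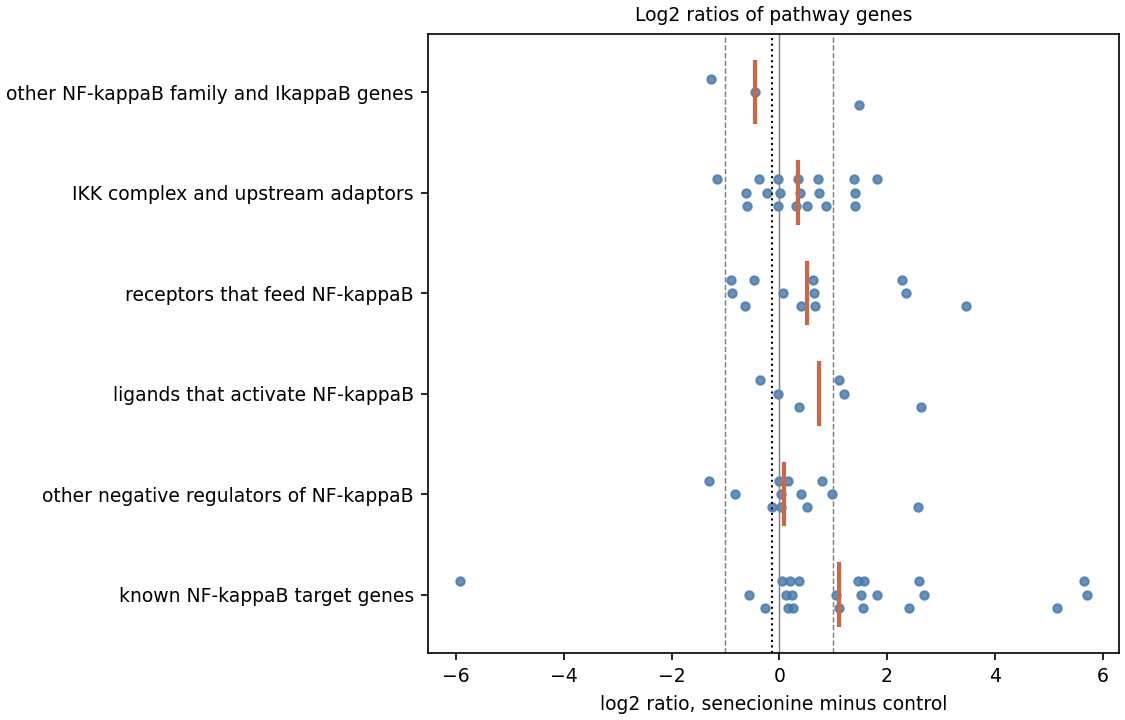
Log2 ratio (horizontal axis) of each measured gene (points) in 6 pathway lists, with the list median (orange bar). Dashed lines mark 2-fold and the dotted line the median of all measured genes, -0.14. Target genes have the highest list median, 1.10, and the further family genes the lowest, -0.46.

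Known target genes of NF-kappaB were higher in 13 and lower in 1 of 23 measured cases, with a median log2 ratio of 1.10. Of all measured genes 11.2% were higher and 17.7% lower. A further 10 of the 36 targets with a named probe were well above background only after senecionine, as were 19.1% of all named genes. The list was drawn up with results of these arrays known, so its direction is a description. Its highest ratios were those of the iron-binding protein Lcn2 and of Cxcl1 and Ccl2, which draw neutrophils and monocytes. Their log2 ratios were 5.72, 5.66 and 5.16. Birc3, the highest of the 6 after scaling to the 75th percentile, was at 1.85. The chemokine Cxcl2 and the survival gene Bcl2a1 were at least 37.4-fold and 5.50-fold higher. Further protective genes of the list, picked after their values were seen, included Cflar, an inhibitor of caspase-8 (3.51-fold higher), the mitochondrial superoxide dismutase Sod2 (6.04-fold) and Gadd45b (6.46-fold). Bcl2l1, which encodes the survival protein Bcl-xL, was 2.94-fold higher by its brighter probe and at a log2 ratio of -0.12 by the other. The caspase inhibitor Xiap, picked in the same way, was at a log2 ratio of 0.25 ± 0.32. Of the adhesion molecules, also picked after their values were seen, Icam1 was 2.76-fold higher and Vcam1 was at a log2 ratio of 0.19 ± 0.21. The adhesion molecules Sele and Selp were well above background on neither array. The lower target was Cx3cl1 (-5.93 ± 0.21, other probe -2.48), a chemokine that is also known from neurons. Beside it, the summed signal of 12 brain markers was 79.0 in the control pool and 4.75 in the treated pool, in units of each array's 75th percentile. The neuronal tubulin Tubb3 alone gave 55.7 of the first sum and 2.79 of the second. A link between these markers and the ratio of Cx3cl1 was not tested.

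Markers of other cell types differed between the arrays, and in pooled tissue fewer cells of a type and less RNA per cell cannot be told apart. The sums below run over all markers of a list with a named probe, measured or not, on the control and then the senecionine array. Counts are at 2-fold, past which 11.2% of all measured genes were higher and 17.7% lower. These shares were 9.12% and 21.3% with median scaling, and 7.86% and 9.75% with normexp correction. They were 12.1% and 16.4% with quantile scaling, 20.8% and 10.1% without scaling, and 11.1% and 17.9% with flagged spots kept. Of 10 named neutrophil markers 5 were measured and all 5 were at least 2-fold higher (sums of 6.37 and 83.3). With median scaling or normexp correction 3 of the 5 were, and Ncf1 (log2 ratio 1.03) and Ncf4 (1.09) lay near the line. S100a8 and S100a9 make up most of the second sum. Csf3r, Cxcr2 and Itgam were well above background only after senecionine. Of these, Cxcr2 read 16.6 intensity units there, under the lowest signal so called on the control array (20.6). Elane was also well above background only after senecionine, though its signal was lower there (17.9 and 14.5 intensity units). Fpr1 was well above background on neither array. Of 7 measured macrophage and Kupffer cell markers 1 was higher (Cd68) and 3 were lower (Clec4f, Vsig4 and Adgre1), with sums of 133 and 78.5. Cd68 did not reach 2-fold with median scaling, and 2 were higher when outlier-flagged spots, such as that of Lyz2, were kept. Cd163 was well above background on neither array. Of 6 measured lymphocyte markers 2 were higher, or 0 with normexp correction, and 1 was lower (sums of 5.61 and 7.83). Cd3e, Cd8a and Ptprc were well above background only after senecionine, and Cd4 and Cd2 on neither array. Cd3e read 20.4 intensity units after senecionine, also under 20.6. Of 6 measured sinusoidal endothelial markers 4 were lower and none higher (115 and 39.5). Cdh5 was well above background only after senecionine, and Pecam1 on neither array. Of 8 measured stellate cell and fibroblast markers 2 were higher and 1 lower (244 and 159). Lum was well above background only after senecionine, at 14.1 intensity units, also under 20.6. Both measured bile duct markers, Krt19 and Epcam, were higher, or 1 of them with normexp correction. The bile duct sums were 0.79 and 25.03, of which Spp1, well above background only after senecionine, gave 0.052 and 21.7. Of 5 measured hepatocyte markers 2 were lower and none higher (3555 and 2543). With normexp correction and without scaling 0 were lower, and with quantile scaling 1 was lower and 1 higher. Their median log2 ratio was -0.57, and -0.02 with cyclic loess. The part of these cells in the ratios of Birc3, Bcl3, Nfkb2 and the other genes was not tested.

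**Figure D5:**
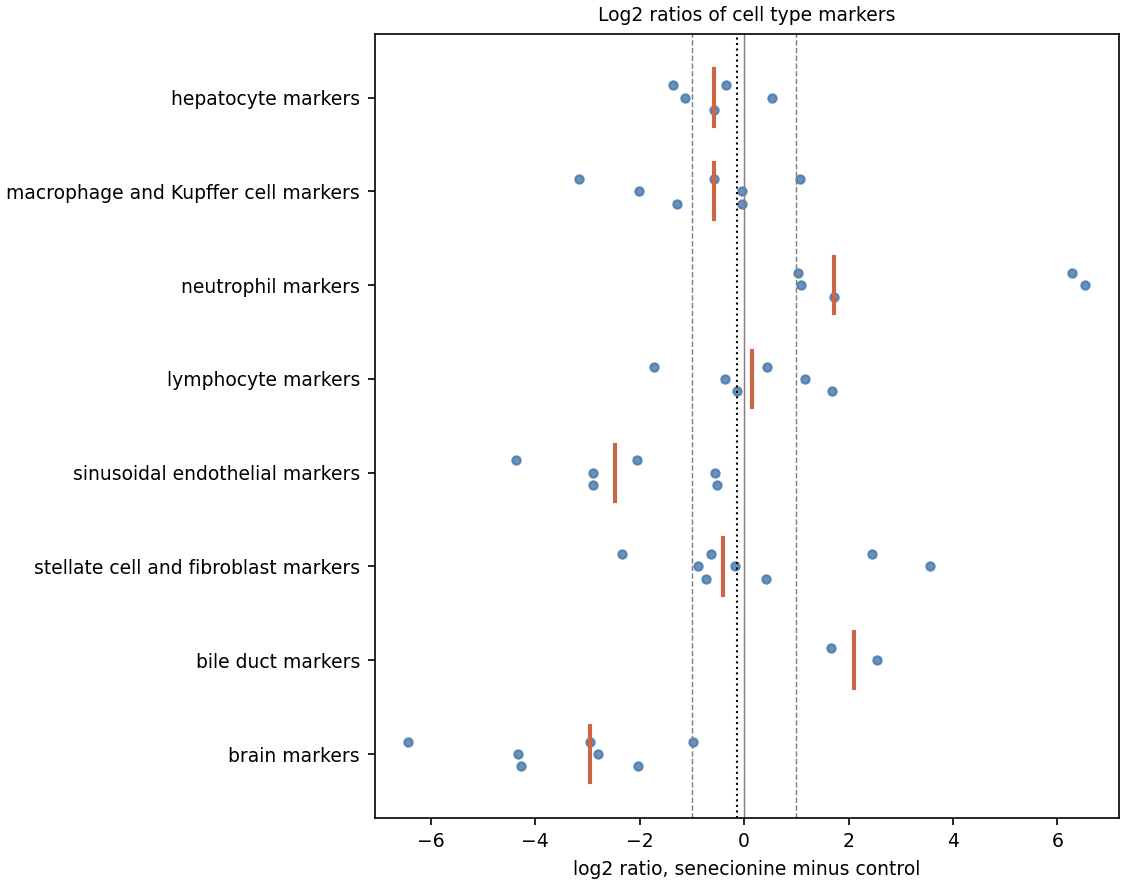
Log2 ratio (horizontal axis) of each measured cell type marker (points), with the list median (orange bar), dashed lines at 2-fold and a dotted line at the median of all measured genes. All 5 neutrophil markers lie at or above 1.03, and 6 of 7 brain markers lie below the lower dashed line.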

How the data were processed

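One array per group was analysed, grouped by the sample titles. Per the file headers and the submitters' processing notes, the spot intensity values were deposited as made by Agilent Feature Extraction 10.7.3.1, with background subtracted and trends within the array removed, and without scaling from array to array. A second table of the authors gives deposited log2 values for 7404 probes. Their scaling and centring were not given in the sources used here. The column medians are 6.03 and 6.10, and the direction follows the scanner signals (Pearson's r of the ratios was 0.994). This r is over the listed probes, which are no independent replicates. They all differ by at least 2-fold, which favours a high r.

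Log2 of the processed signal minus each array's 75th percentile was taken, without control spots and outlier-flagged spots (522 and 497), which took all named probes of 170 genes and of none of the 10. Unversioned RefSeq accessions were matched to the GRCr8 gene table, which named 17241 of 40516 probes. Since the array's design uses build rn4, only promoter windows carry coordinates. A gene counts as measured where a probe is well above background on both arrays, and the brightest such probe stands for it. Other probes are given where they disagree. A fold written as "at least" sets the bright signal against the lowest signal well above background on the other array, or the dim probe's own where that is higher. Genes were counted at 2-fold, with no p-value. The counting was tested on simulated data. Precision is limited by the number of arrays. The 2 independent experiments of the series' design text were read as the 2 arrays.

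The members, lists and rules were chosen with earlier results of these data known. Named genes are the 6 with a probe and, per list, the 4 largest absolute ratios and the 2 highest bounds, plus Birc2 and those marked as picked later. No proteins were compared, and 1 lymphocyte marker is not reported here. Alternatives were other scalings, normexp background correction (offset 50, on median spot signals), other probe rules, filters and folds, flagged spots kept and the authors' values. Normalization alternatives used limma 3.58.1 under R 4.3.3, and all else Python 3.11.15 with pandas 2.3.3, numpy 2.4.6 and matplotlib 3.10.9.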

Additional observations from a re-analysis of the deposited data

How the results depend on the processing

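No paired analysis was possible because each group has 1 array. Birc3 and Bcl3 stayed at least 2-fold higher in every scaling and background setting run, with log2 ratios of 1.43 to 2.25 and 1.17 to 1.70. Each has 1 probe with 1 spot, so the probe rules and the keeping of flagged spots could not change their ratios. Nfkb2 ranged from 0.80 to 1.41 and so depends on the setting. Where a value moved, the cause was not tested, apart from filters, folds and scalings that change the counts by construction.

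Without scaling, an alternative added after the data were seen, the log2 ratios were 1.41 for Nfkb2, 0.23 for Rela, 0.75 for Nfkbia, 0.64 for Nfkbib, 1.70 for Bcl3 and 2.25 for Birc3. In that setting 7 IKK and adaptor genes, 6 receptors and 3 other negative regulators were higher, and 0 of the further family genes, of the IKK genes and of the other negative regulators were lower. With normexp correction Rela was at 0.25, Nfkbia at 0.59 and Birc3 at 1.43, which put Birc3 below Bcl3. With that correction 0 of the further family genes were higher and 0 lower, and 2 IKK genes were higher and 0 lower. Bcl3 was at 1.51 with cyclic loess, where 2 other negative regulators were higher, and at 1.62 in the authors' values. Median scaling put 2 receptors lower, and the mean of probes put 0 other negative regulators lower.

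With genes well above background on at least 1 array, 9 of 25 IKK genes, 6 of 15 receptors, 3 of 15 other negative regulators and 23 of 33 targets were higher. The genes added to these lists were well above background only after senecionine, so this filter itself favours higher counts. Over all genes 2389 of 10586 (22.6%) were higher and 1560 lower, against 876 and 1378 of 7798. Without scaling 1619 were higher and 786 lower, and with normexp 613 and 760. At 1.5-fold, 7 IKK genes, 6 receptors and 3 other negative regulators were higher, and 3, 3 and 2 lower. At 3-fold, 1 of the 6 genes, 0 further family genes, 1 IKK gene, 1 ligand and 7 targets were higher, and 0 further family genes, 0 IKK genes and 0 other negative regulators were lower. At 1.5-fold over all genes 1641 were higher and 2422 lower, and at 3-fold 366 and 614. Signal near background limits dim genes such as Tnf, and the second Nfkb2 probe.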
